A study of Homo sapiens with 4 samples.

Results

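The 21 genes described here are solute carrier genes of the deposited table. They were taken from the genes listed under a single symbol that starts with SLC and a family number, or with SLCO, with pseudogenes left out and the probe set of highest mean signal taken for each symbol. They are 21 of 2447 genes named by a single symbol. The table gave a single symbol to 2540 of its 26722 annotated probe sets, so that solute carrier genes read by the other probe sets were not analysed here, and the counts below cover the named genes only. Each was read by 1 probe set, and no SLCO gene was among them. Solute carriers are membrane proteins that move amino acids, sugars, ions, metals, metabolites and drugs across the plasma membrane or the membranes of mitochondria, the Golgi apparatus and lysosomes. They work as exchangers, cotransporters or facilitators, driven by gradients and not directly by ATP. In prostate epithelium androgen is known to act on several of them, through the androgen receptor, a steroid receptor that binds DNA mostly at enhancers away from gene starts.

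RNA came from LNCaP, a cultured human prostate cancer cell line that responds to androgen, and was hybridised to 4 Affymetrix whole transcript arrays. The 4 groups of 1 array each were siControl with ethanol vehicle, siControl with 10 nM dihydrotestosterone (DHT, a potent natural androgen), siPOTEF-AS1 with vehicle, and siPOTEF-AS1 with 10 nM DHT. POTEF-AS1 is a long noncoding RNA antisense to POTEF, and the design asked how its knockdown bears on androgen-dependent expression. All groups shared 3 days in medium with 2.5% charcoal-treated serum before the hormone, which removes most steroids, and transfection 48 h before hormone. No probe set was named POTEF-AS1, so the knockdown itself was not checked. None of the 11 luminal prostate markers looked for was measured under its name, and the line was therefore not checked against them. The basal keratin genes KRT5 and KRT15 were below the brightness floor described next on every array. Over 33297 probe sets the Pearson correlation between arrays ran from 0.989 to 0.995.

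Values are RMA signals on the log2 scale, so that a difference of 1 is 2-fold. A gene was taken as expressed if its highest value on the 4 arrays reached 6.82, the median of all values of annotated probe sets. Of the 21 genes, 16 were expressed and 5 were not. The 2 expressed genes nearest to the floor were SLC16A9, with a highest value of 6.86, and SLC25A51, with 6.88. Of the genes below it SLC2A10 came nearest, at 6.78, and SLC38A5 followed at 5.57. Because the floor takes the highest value, a gene near it can pass on the strength of the group where it is high. SLC25A51 passed on 1 array, siPOTEF-AS1 with vehicle, and SLC16A9 on the 2 siPOTEF-AS1 arrays, whereas the other 14 lay above the floor on all 4. No group had a second array, so a single difference of 2 arrays has no test. It is called at 1.5-fold, a log2 difference of 0.585, and is set against the same difference on the other pair of arrays. An additive model with terms for siRNA and for hormone, fitted with limma to all 4 arrays and 13747 expressed annotated probe sets, gave the only p-values. It has 1 residual degree of freedom per probe set and assumes that DHT acts alike in both siRNA arms.

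**Figure D1:**
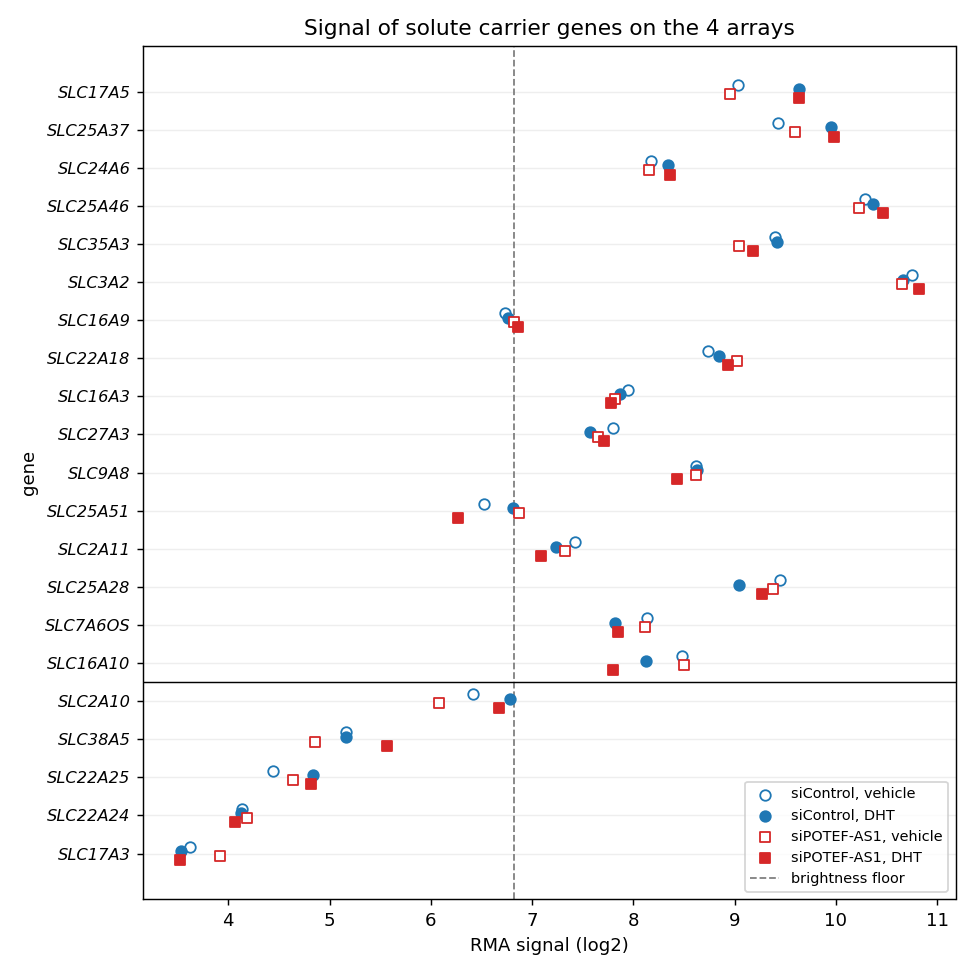
RMA signal (log2, horizontal axis) of each solute carrier gene (vertical axis) on the 4 arrays, with 1 point per array. Open symbols are vehicle, filled symbols DHT, circles siControl and squares siPOTEF-AS1. The dashed line is the brightness floor at 6.82, and the 5 genes under the black line did not reach it on any array. Open and filled symbols separate in SLC17A5, SLC25A37 and SLC16A10. They also separate in expressed genes that the additive model did not call, namely SLC7A6OS, SLC24A6, SLC2A11, SLC25A28 and SLC25A46.

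For DHT, the additive model called 3 of the 16 expressed solute carrier genes described, with 1 array per group. SLC17A5 (sialin, which exports sialic acid from lysosomes) and SLC25A37 (mitoferrin 1, which brings iron into mitochondria) rose. SLC16A10 (TAT1, a transporter of aromatic amino acids and thyroid hormone) fell. Of these genes only SLC17A5 kept its call in every alternative fit. The sizes were moderate, from 1.37-fold to 1.56-fold as means over both siRNA arms, and none of the 16 reached 2-fold with DHT in either arm, as 2.29% of all probe sets did in siControl and 2.65% in siPOTEF-AS1 cells. In the additive model 6.61% of all 13747 probe sets were called higher with DHT and 7.89% lower at a limma adjusted p of 0.05, against 2 and 1 of these 16 genes. Their median DHT effect was -0.02 on the log2 scale, and that over all probe sets was -0.02 too. With 16 genes these counts were not read as a property of solute carriers. The arrays measured bulk RNA scaled to a common distribution, so that a change in RNA per cell and a change in the share of a single gene cannot be told apart.

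Promoters of genes called for DHT are shown for a gene that rose and a gene that fell. They are the 250 bases before the start of the RefSeq transcript on GRCh38.p14. The SLC16A10 sequence is chr6:111087253-111087502 on the plus strand, with a GC content of 74.4%, and that of SLC17A5 is chr6:73653993-73654242 on the minus strand, with 69.2%, where the median of 35116 promoters was 58%. SLC25A37 is named only. Capitals mark CCAAT boxes (CCAAT or its reverse complement ATTGG) and GC boxes (GGGCGG or CCGCCC), chosen after the sequences were seen.
SLC16A10: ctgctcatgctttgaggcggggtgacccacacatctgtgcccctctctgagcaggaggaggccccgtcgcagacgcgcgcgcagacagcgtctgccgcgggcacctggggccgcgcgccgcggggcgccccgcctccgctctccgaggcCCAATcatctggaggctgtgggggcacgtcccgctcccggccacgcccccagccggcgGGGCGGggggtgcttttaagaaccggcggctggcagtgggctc
SLC17A5: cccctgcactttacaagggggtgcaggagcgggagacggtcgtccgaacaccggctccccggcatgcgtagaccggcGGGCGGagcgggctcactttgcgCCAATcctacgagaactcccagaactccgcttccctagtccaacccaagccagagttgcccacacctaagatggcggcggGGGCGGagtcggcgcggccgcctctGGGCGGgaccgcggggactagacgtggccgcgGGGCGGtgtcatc
SLC16A10 held 1 CCAAT box and 1 GC box, and SLC17A5 held 1 and 4. Of all promoters 32% held a CCAAT box and 42.6% a GC box. Of the 30 promoters listed for the solute carrier genes, 6 held a CCAAT box and 20 a GC box. The androgen receptor half-site, searched as AGAACA or TGTTCT, was in none of the 30 promoters listed for 19 of the 21 genes, and in 12.4% of all promoters. The full androgen response element, the half-site as an inverted repeat, was in 1 of 35116. These letters say nothing on binding elsewhere.

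The ion carriers described did not pass the test for DHT. SLC24A6 (current symbol SLC8B1; chromosome 12, 113736564 to 113772835, minus strand, GRCh37) encodes the sodium-calcium exchanger of mitochondria. Its siControl signals were 8.18 in vehicle and 8.34 in DHT and its siPOTEF-AS1 signals 8.15 and 8.37. It was higher with DHT in each arm, by 0.16 and 0.22, with a limma adjusted p of 0.24. SLC9A8, a sodium-proton exchanger gene of the Golgi, had siControl signals of 8.62 in vehicle and 8.63 in DHT and siPOTEF-AS1 signals of 8.62 and 8.43. Only the siPOTEF-AS1 DHT array stood lower, and the DHT differences were 0.00 and -0.19.

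The carriers of amino acids and monocarboxylates differed among themselves. SLC16A10 had signals of 8.48 and 8.50 on the siControl and siPOTEF-AS1 vehicle arrays and of 8.13 and 7.80 on the matching DHT arrays. Both DHT values were lower, and the lowest was that of siPOTEF-AS1 cells. The difference was -0.36 in siControl cells, short of 1.5-fold, and -0.70 in siPOTEF-AS1 cells. The model estimate was -0.53 ± 0.11 (SE), 1.44-fold lower, with a limma adjusted p of 0.029. The call was lost in 3 of 6 other settings, by scaling, filter or background, at limma adjusted p of 0.052 to 0.11. Another of the 6, the probe set rule, could not differ, since the gene had no second probe set. The other measured genes of its family did not pass. SLC16A3, the gene of the lactate exporter MCT4, had siControl signals of 7.95 in vehicle and 7.87 in DHT and siPOTEF-AS1 signals of 7.82 and 7.78, for DHT differences of -0.08 and -0.04. SLC16A9 (chromosome 10, 61410523 to 61495760, minus strand, GRCh37), a monocarboxylate transporter family gene, had siControl signals of 6.74 and 6.76 and siPOTEF-AS1 signals of 6.82 and 6.86, for differences of 0.03 and 0.04.

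SLC3A2 (ENSG00000168003; chromosome 11, 62623518 to 62656352, plus strand, GRCh37) encodes the heavy chain of CD98, which several amino acid transporters need to reach the cell surface. With siControl its signals were 10.75 in vehicle and 10.66 in DHT, and with siPOTEF-AS1 10.66 in vehicle and 10.82 in DHT. These values overlapped between vehicle and DHT. Its DHT estimate was 0.04 ± 0.10 (SE) with a limma adjusted p of 0.85. SLC3A2 was the 1 measured gene of 9 solute carriers listed as ATF4 or stress targets, and none of 10 listed as androgen-responsive was measured by name. SLC7A6OS lies opposite the amino acid transporter gene SLC7A6 and bears its name, but is not itself a transporter, and the table annotated it to nucleus and cytoplasm. Its siControl signals were 8.13 in vehicle and 7.82 in DHT and its siPOTEF-AS1 signals 8.12 and 7.85. Both DHT values were below both vehicle values, with differences of -0.31 and -0.27 and a limma adjusted p of 0.093.

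SLC17A5 (ENSG00000119899; chromosome 6, 74303102 to 74363878, minus strand, GRCh37) was the 1 gene of the 21 that the table annotated to lysosomes. Its signal was 9.04 and 8.96 on the siControl and siPOTEF-AS1 vehicle arrays and 9.64 on each DHT array. The DHT values were equal to each other when rounded and above both vehicle values. The differences of 0.60 and 0.68 passed 1.5-fold in both arms, the former only just. The model estimate was 0.64 ± 0.09 (SE), 1.56-fold higher, with a limma adjusted p of 0.0077. SLC17A3, its relative known as a renal transporter of organic anions and urate, lay between 3.52 and 3.92 on all arrays and was below the floor.

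The 4 mitochondrial carrier genes of family SLC25 were all expressed, and 1 of them passed the test for DHT. SLC25A37 had signals of 9.43 and 9.59 on the siControl and siPOTEF-AS1 vehicle arrays and of 9.95 and 9.98 on the DHT arrays. Both DHT values were the higher, by 0.52 and 0.39. The model estimate was 0.46 ± 0.10 (SE), 1.37-fold higher, with a limma adjusted p of 0.026. The call was lost in 2 of 7 other settings at limma adjusted p of 0.064 and 0.11. Another of the 7, the probe set rule, could not differ, since the gene had no second probe set. SLC25A28, mitoferrin 2, is the second iron importer of the mitochondrial inner membrane. With siControl its signals were 9.45 in vehicle and 9.04 in DHT, and with siPOTEF-AS1 9.38 in vehicle and 9.27 in DHT. Both DHT values were here the lower, by 0.41 and 0.11 (limma adjusted p of 0.18), so that the estimates of the mitoferrin genes had opposite signs. The difference between them was not tested. SLC25A46 (chromosome 5, 110074695 to 110098484, plus strand, GRCh37), whose product acts in mitochondrial membrane dynamics, had siControl signals of 10.29 in vehicle and 10.36 in DHT and siPOTEF-AS1 signals of 10.23 and 10.46. DHT minus vehicle was 0.08 and 0.24, with a limma adjusted p of 0.34.

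SLC25A51, the gene of the mitochondrial NAD carrier, did not keep its direction between arms. With siControl its signal was 6.53 in vehicle and 6.81 in DHT, and with siPOTEF-AS1 it was 6.88 in vehicle and 6.27 in DHT. The DHT difference was therefore 0.29 in the former arm and -0.60 in the latter. Of its 4 values 3 lay below the floor. The remaining value, siPOTEF-AS1 with vehicle, enters the difference of the latter arm. The model, which assumes equal effects in both arms, gave it a standard error of 0.20, against a median of 0.10 over the 16 genes.

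Sugar, nucleotide sugar, lipid and drug carriers had small differences or dim signals. SLC2A10, the gene of the hexose transporter GLUT10, had signals of 6.42 and 6.08 on the siControl and siPOTEF-AS1 vehicle arrays and of 6.78 and 6.68 on the DHT arrays. Both DHT values were above both vehicle values, by 0.37 and 0.59, but all 4 lay below the floor. Without the floor its model estimate was 0.48 ± 0.12 (SE) with a limma adjusted p of 0.11. With named genes as background the floor was 6.45, which it reached, and the estimate was 0.48 ± 0.11 (SE) with a limma adjusted p of 0.069. Its relative SLC2A11, a hexose transporter gene too, had siControl signals of 7.43 in vehicle and 7.24 in DHT and siPOTEF-AS1 signals of 7.33 and 7.09, for differences of -0.19 and -0.24 with a limma adjusted p of 0.19. SLC35A3, which carries UDP-N-acetylglucosamine into the Golgi, differed by 0.03 and 0.14, and SLC27A3, an acyl-CoA synthetase gene of the fatty acid transport protein family, by -0.23 and 0.06. SLC22A18 (current symbol SLC67A1; chromosome 11, 2923650 to 2946476, plus strand, GRCh37), which only its older symbol places in family SLC22, differed by 0.12 and -0.10.

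The remaining dim genes were not read for direction. SLC22A24 and SLC22A25, organic anion transporter family genes, lay between 4.07 and 4.84 on all arrays. SLC38A5, a sodium-coupled glutamine and neutral amino acid transporter gene, had siControl signals of 5.17 in vehicle and 5.16 in DHT and siPOTEF-AS1 signals of 4.85 and 5.57. Levels this far under the floor were not shown to be above background, and no fold is given.

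**Figure D2:**
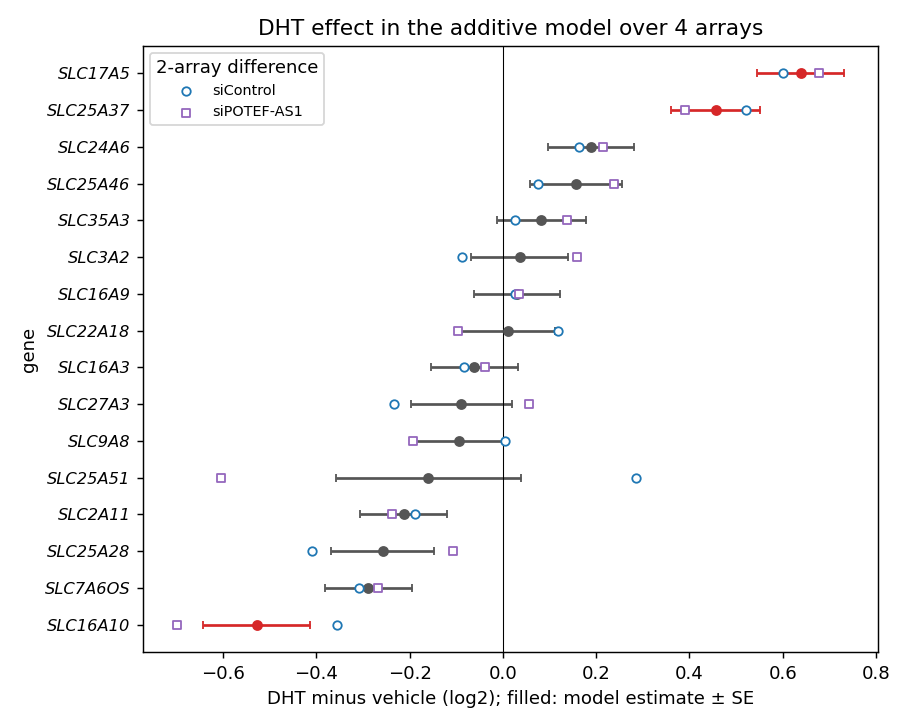
DHT minus vehicle (log2, horizontal axis) for the 16 expressed solute carrier genes (vertical axis). Filled points and bars are the estimate of the additive model and its SE over 4 arrays, red where the limma adjusted p is under 0.05, and open symbols are the 2-array differences of each siRNA arm. SLC17A5 and SLC25A37 are red on the right, SLC16A10 on the left, and SLC25A51 has its open symbols on opposite sides of 0.

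Counted at 1.5-fold, 1 of the 16 genes was higher with DHT in siControl cells (SLC17A5) and 0 lower, where 3.98% and 3.26% of all probe sets were. In siPOTEF-AS1 cells 1 was higher and 2 were lower, against 4.02% and 5.4%. The lower genes there were SLC16A10 and SLC25A51. SLC25A51 passed the floor only on the siPOTEF-AS1 vehicle array, which enters this same difference. Both arms shared 1 higher gene, SLC17A5, and 0 lower, against 2.86% and 2.25%. The sign of the DHT difference was the same in both arms, whose arrays are different ones, for 11 of 16 genes, 6 higher and 5 lower. Over all probe sets the share was 71.1%, against 68.8% here, with 4195 of 13747 higher in both arms and 5580 lower. By compartment, the table annotated 6 expressed genes to mitochondria, of which 3 had a mean DHT difference above 0 and 3 below, and 8 to the plasma membrane, 5 above and 3 below. SLC24A6 was in both groups. These counts were not set against all probe sets and were not read as a property of a compartment.

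**Figure D3:**
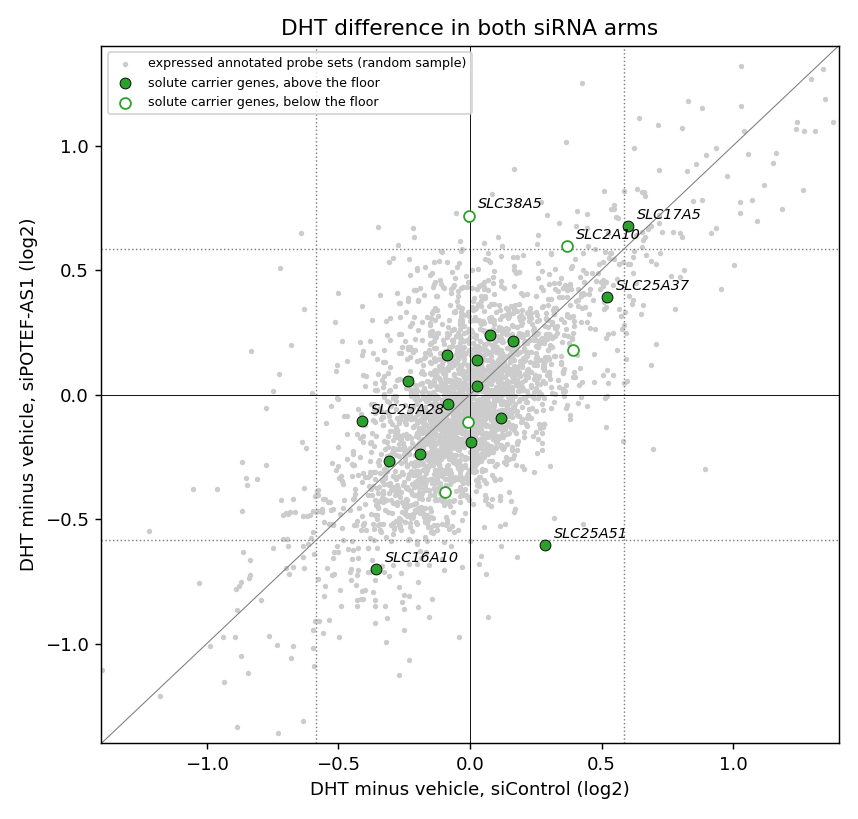
DHT minus vehicle (log2) in siControl cells (horizontal axis) and in siPOTEF-AS1 cells (vertical axis). Green points are expressed solute carrier genes, open circles those below the floor, and grey points a random sample of 3000 expressed annotated probe sets, those beyond the axes not drawn. Dotted lines mark 1.5-fold and the solid diagonal equal responses. SLC17A5 lies outside the dotted lines in both arms, and SLC25A51 is the green point farthest from the diagonal.

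Other transport genes were too few to compare. Of 17 genes of ABC transporters, pumps and channels measured by name, 3 were expressed, namely ABCC6, ABCD4 and KCNK12, and none passed the test for DHT. Their median DHT estimate was -0.15, and the lowest limma adjusted p was 0.10, for ABCC6, a gene of the multidrug resistance protein family.

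Knockdown of POTEF-AS1 left no called difference among these genes. In vehicle, 0 of 16 were 1.5-fold apart between siPOTEF-AS1 and siControl cells, where 0.837% of all probe sets were, and in DHT 0 of 16, where 1.01% were. In the additive model 0 of 16 passed a limma adjusted p of 0.05 and 1 had an unadjusted p under 0.05, against 0 and 784 of 13747 probe sets, which are 0% and 5.7%. That gene was SLC35A3, the Golgi UDP-N-acetylglucosamine transporter gene. With siControl its signals were 9.40 in vehicle and 9.42 in DHT, and with siPOTEF-AS1 9.05 in vehicle and 9.19 in DHT. Both siPOTEF-AS1 values were the lower, with differences of -0.35 and -0.24. The estimate was -0.29 ± 0.10 (SE) with an unadjusted p of 0.020 and a limma adjusted p of 0.76.

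The other knockdown differences were smaller or of unlike sign. SLC22A18 had siControl signals of 8.73 in vehicle and 8.85 in DHT and siPOTEF-AS1 signals of 9.03 and 8.93, for knockdown differences of 0.29 and 0.08. For SLC16A10 they were 0.02 in vehicle and -0.33 in DHT, whereas SLC25A28 differed by -0.07 and 0.23. SLC25A51 had the largest single value in DHT, 0.54 lower, and was 0.35 higher in vehicle. It passed the floor only on the siPOTEF-AS1 vehicle array, which enters the difference in vehicle. The sign was the same in both treatments for 7 of 16 genes, 43.8%, against 49.7% of all probe sets, and the median estimate was 0.00 when rounded. Among the 7 was SLC16A9, higher with siPOTEF-AS1 in both treatments. It passed the floor only on the siPOTEF-AS1 arrays, which enter these same differences.

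**Figure D4:**
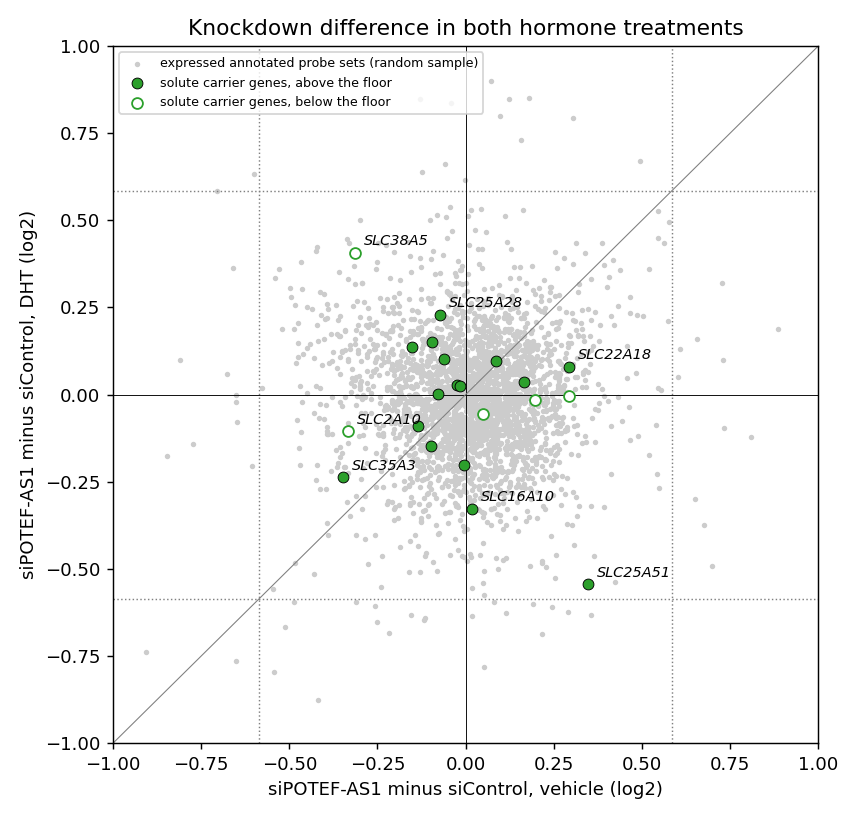
siPOTEF-AS1 minus siControl (log2) in vehicle (horizontal axis) and in DHT (vertical axis), with symbols as in the plot of DHT differences. No green point lies outside the dotted 1.5-fold lines. SLC35A3 is low on both axes and SLC25A51 has opposite signs.

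The question closest to the design was whether the DHT response differed between the siRNA arms. Among the 16 expressed genes 1 differed by 1.5-fold or more, SLC25A51, at -0.89 for the siPOTEF-AS1 response minus the siControl response. Over all probe sets 1.83% were higher and 1.27% lower by this measure. The difference could not be tested, since each group had 1 array, and 3 of the 4 signals behind it lay below the floor. SLC25A51 passed the floor only on the siPOTEF-AS1 vehicle array, which enters this same difference, so that the call was not independent of the floor rule. For the 3 genes called for DHT the responses differed by -0.34 in SLC16A10, -0.13 in SLC25A37 and 0.08 in SLC17A5. The median over the 16 genes was 0.04, against -0.04 over all probe sets.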

How the data were processed

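RNA of LNCaP cells was measured on 4 arrays, 1 per group. The authors deposited log2 signals per probe set, for which the submitters' processing notes name RMA and the Affymetrix Expression Console. Their versions are not given in the sources used here. RMA brings arrays to a common distribution and compresses differences of dim probe sets. A second deposited table held the same log2 values, within 1.78e-15. Depth has no counterpart on arrays, and their number limits the precision.

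From these values, probe sets with an annotated transcript were kept and identical rows counted once, leaving 26187, of which 13747 reached the floor. Differences of 2 arrays carry no test. The additive model used limma 3.58.1 in R 4.3.3 (lmFit, eBayes, Benjamini-Hochberg). Its code was run on simulated data that met its assumptions, with DHT effects larger than those called here. That run is no check on the calls made here. SE is the moderated standard error. Whether samples were separate cultures is not labelled, and with 1 array per group the p-values measure only the residual spread of these arrays. Named genes are those 1.5-fold apart, past the adjusted threshold, largest in either direction, brightest, or listed as androgen or stress targets. Others are given for their role. Of the genes that meet the rule, 1 is not reported here, and counts and medians leave it out. Members and lists were chosen with earlier results of these data known. Gene coordinates are the table's, on GRCh37, whereas promoter coordinates are on GRCh38.p14. The 2 older symbols were updated through the RefSeq gene table. Alternatives changed scaling, intensity trend, floor, probe set rule, fold, background and variance prior.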

Additional observations from a re-analysis of the deposited data

Results flagged for a closer look

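SLC25A51 stood out because its DHT differences had opposite signs in the siRNA arms, 0.29 with siControl and -0.60 with siPOTEF-AS1. The difference between the arms was not tested, since each group had 1 array, and 3 of its 4 signals lay below the floor of 6.82. The gene passed the floor only on the siPOTEF-AS1 vehicle array, which enters the difference of -0.60.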

How the results depend on the processing

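SLC17A5 kept its DHT direction and call in all 7 alternative fits of the additive model. The estimates were 0.63 to 0.64, with limma adjusted p up to 0.044. After median centring these genes all had the same standard error, 0.14, so that fit carries no spread of the single gene. The model called 3 of 16 genes, but 1 of 21 without a floor and 1 of 17 with named genes as background, in both cases SLC17A5. Its calls over all probe sets went from 1994 of 13747 to 846 of 26187 without a floor and 94 of 1300 named genes. In those settings SLC25A37 had adjusted p of 0.11 and 0.064 and SLC16A10 of 0.11 and 0.073. With quantile normalization repeated SLC16A10 was at 0.052, and SLC17A5, at 0.58 in siControl cells, missed 1.5-fold there, so that 0 genes in place of 1 were called in both arms. At 2-fold 0 genes were called in both arms and 0 for the difference of responses. That difference was called for 2 genes without a floor, SLC25A51 and SLC38A5, and for 0 with the floor at the 75th percentile, which keeps 7 of the 21 genes and drops SLC25A51. No setting called any of these genes for knockdown, either by fold or in the model. Over all probe sets the model called 87 of 13741 for knockdown after median centring of the arrays, against 0 of 13747 before it. It called 48 of 7116 with the higher floor and 66 of 13747 with a variance prior that follows intensity. For DHT that prior gave 3007 of 13747 calls over all probe sets, against the 1994 given above. The cause of these shifts was not tested. Centring on medians moved the median difference of responses from -0.04 to -0.13. The probe set rule, 1 of the 7 fits, could change nothing, since no gene had a second probe set. No pairing beyond that by siRNA arm was possible, because each group had 1 array and the labels number no replicates. The additive model already compares vehicle with DHT within each siRNA arm.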
